A study of Arabidopsis thaliana with 3 samples.

Results

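The brassinosteroid genes described here are 9 TAIR10 loci, namely BRI1 (AT4G39400), BAK1 (AT4G33430), BIN2 (AT4G18710), BZR1 (AT1G75080), BES1 (AT1G19350), DWF4 (AT3G50660), CPD (AT5G05690), DET2 (AT2G38050) and BAS1 (AT2G26710), out of 27444 nuclear protein-coding genes. They were chosen by name, as genes of the pathway, with earlier results of these data known. Chromatin carrying proteins fused to green fluorescent protein (GFP) was precipitated with an anti-GFP antibody from Arabidopsis thaliana seedlings aged 7 days, all grown in low blue light. The genotypes, with 1 library each, were wild-type Col-0, OX TZP, in which TZP is overexpressed, and OX ZFHD10, in which ZFHD10 is. TZP is a nuclear zinc-finger protein that acts in responses to light, and ZFHD10 is a homeodomain protein with a zinc finger. The promoter of either introduced gene and the number of independent plant lines are not given in the sources used here. The values are lists of enriched regions, called islands, for OX TZP and OX ZFHD10, each with its number of reads. Col-0 islands were not analysed here.

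Brassinosteroids are plant steroid hormones that promote cell elongation, including that of the hypocotyl. They are bound at the cell surface by the receptor kinase BRI1 with its co-receptor BAK1, which leads to inactivation of the kinase BIN2. Without that signal BIN2 phosphorylates the transcription factors BZR1 and BES1 and holds them inactive. DET2, DWF4 and CPD encode enzymes of synthesis, BAS1 encodes an enzyme that inactivates the hormone, and active BZR1 and BES1 repress synthesis genes, so that the pathway limits itself.

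An island was assigned to a gene when it shared at least 1 bp with the gene or with the 1000 bp on either side. All 9 members had an OX ZFHD10 island and 8 of them, all but DWF4, also had an OX TZP island. Of all protein-coding genes, 65.9% had an OX ZFHD10 island and 47.2% an OX TZP island by the same rule. When the island's midpoint had to lie there, 6 members had an OX ZFHD10 island and 8 an OX TZP island. The shares of all protein-coding genes were then 61.1% and 41.1%. Each list gave 14 islands at the members. Read density, in reads per kb of island, is given with a 95% exact Poisson interval that covers counting error only, and is compared within a list, since the depth of the whole libraries is unknown. The list medians were 163 reads per kb in OX TZP, over 11675 nuclear islands, and 262 in OX ZFHD10, over 16122. The nuclear islands held 2028493 and 4731495 reads. With 1 library per line there is no replicate error, and no difference between the lines was tested.

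**Figure D1:**
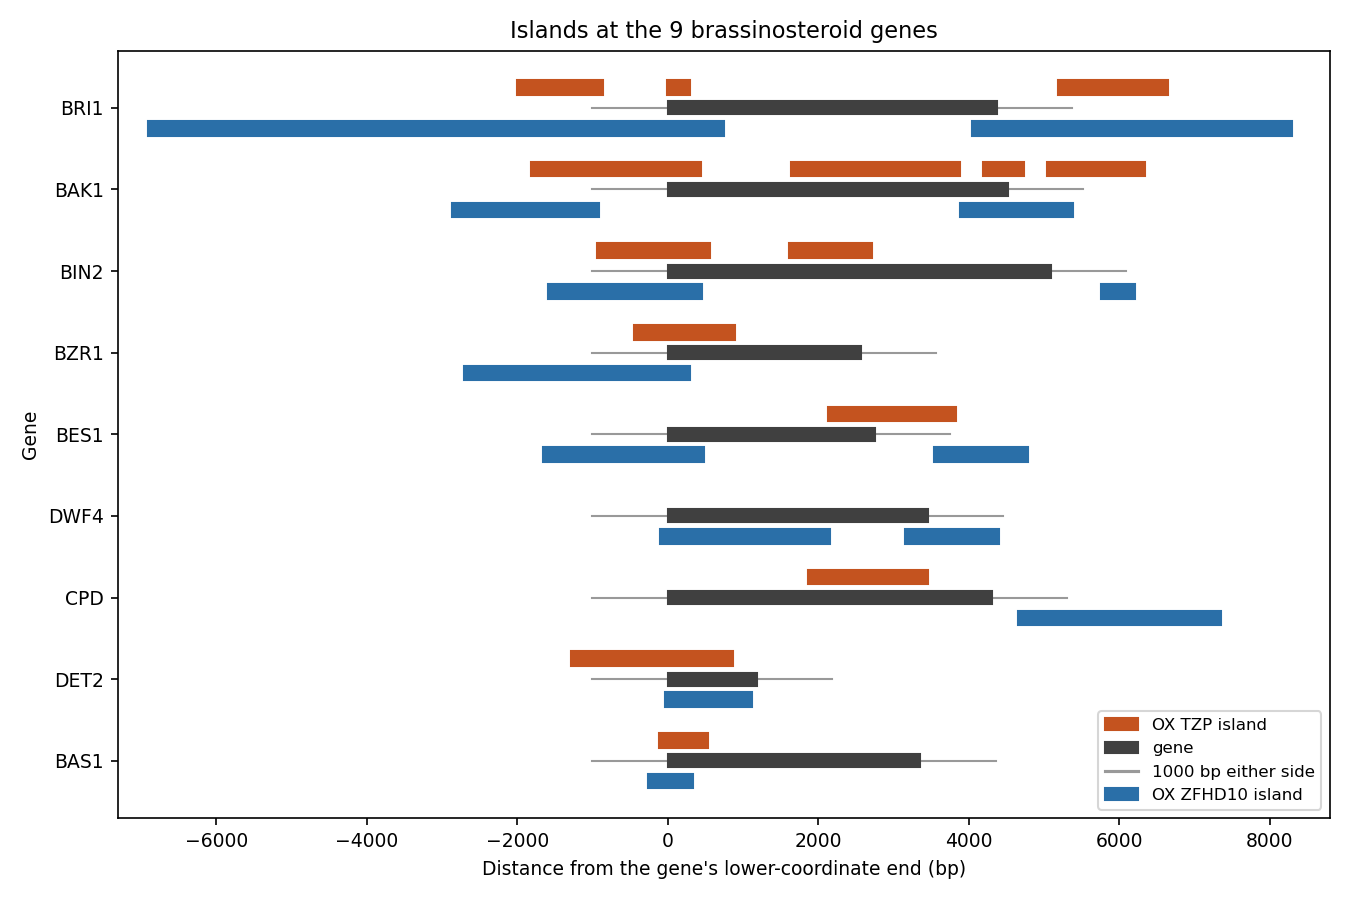
Islands of OX TZP (orange, above each gene) and OX ZFHD10 (blue, below) at the 9 genes (dark bars), drawn to scale in bp from the end of each gene with the lower coordinate; grey lines mark the 1000 bp searched on either side. At BRI1 both OX ZFHD10 islands reach far beyond the gene and leave its middle free, BAK1 has 4 OX TZP islands, and DWF4 has none.

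The receptor genes BRI1 and BAK1 had the densest OX TZP islands among the members, and BRI1 also had the densest OX ZFHD10 island. Their OX TZP intervals overlap those of BAS1 (152 to 219) and BIN2 (155 to 198). The OX ZFHD10 interval of BRI1 overlaps that of DWF4 (361 to 432). At BRI1 the OX ZFHD10 list had a very long island on chromosome 4 from 18317551 to 18325200 (TAIR10) of 7650 bp. It held 3154 reads, or 412 reads per kb (398 to 427). It ranked 793 of 16122 by density, 10 by reads and 14 by length, and was 9.56 times as long as the median island of its list. Only 9.73% of it lay inside BRI1, where it covered the 744 bp at the lower-coordinate end. The rest stretched 6906 bp away from the gene and touched NST-K1 and the long noncoding RNA gene AT4G09855. A second OX ZFHD10 island of 4250 bp, from 18328501 to 18332750, had 1533 reads, or 361 reads per kb (343 to 379), and ranked 121 by reads. It covered the last 331 bp of BRI1 and ran 3919 bp past it, across PLS, AT4G39404, AT4G09865 and WRKY13. BRI1 was thus marked at both ends, and 24.6% of the gene was covered.

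All 3 OX TZP islands at BRI1 lay wholly inside these OX ZFHD10 islands. The densest, at 18324451 to 18324750, began 6 bp outside the lower-coordinate end and had 66 reads over 300 bp, or 220 reads per kb (170 to 280), rank 329 of 11675. It was among the islands with the fewest reads in its list, at rank 11606 by reads. The other OX TZP islands lay outside the gene. The island from 18322451 to 18323600 had 200 reads, or 174 reads per kb (151 to 200), at 856 bp from BRI1. That from 18329651 to 18331100 had 230 reads, or 159 reads per kb (139 to 181), at 819 bp from BRI1, and overlapped PLS, a gene for a short peptide. The intervals of both include the list median, and that of the 300 bp island lies above it.

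BAK1, which encodes the co-receptor, had 4 OX TZP islands, more than any other member, and together they covered 66.8% of the gene. Of the 12963 protein-coding genes with an OX TZP island, 99.4% had fewer islands and 91.2% had a smaller share of the gene covered. On chromosome 4, the island from 16087951 to 16090200 lay wholly inside the gene with 355 reads, or 158 reads per kb (142 to 175), and overlapped no OX ZFHD10 island. The densest, from 16090501 to 16091050, spanned the higher-coordinate end with 113 reads, or 205 reads per kb (169 to 247), rank 633. The island from 16084501 to 16086750 spanned the opposite end, with 313 reads, or 139 reads per kb (124 to 155), rank 11286, among the least dense of the list. It also overlapped AT4G33420. The island from 16091351 to 16092650 lay 518 bp outside, over AT4G33440, with 208 reads, or 160 reads per kb (139 to 183). Thus OX TZP islands ran along most of BAK1, and the island inside the gene had a density close to the list median.

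In the OX ZFHD10 list BAK1 was marked mainly at its higher-coordinate end. An island from 16090201 to 16091700 had 525 reads, or 350 reads per kb (321 to 381), rank 2144, and contained the densest OX TZP island whole. It also overlapped AT4G33440. Another from 16083451 to 16085400 lay 910 bp outside the lower-coordinate end with 423 reads, or 217 reads per kb (197 to 239), rank 13195, and overlapped AT4G33420. The interval of the first lies above the list median and that of the second below it.

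BIN2, the kinase gene that opposes the hormone signal, had overlapping islands of both lines at its lower-coordinate end on chromosome 4. The OX TZP island from 10295201 to 10296700 had 263 reads, or 175 reads per kb (155 to 198), rank 2990. The OX ZFHD10 island from 10294551 to 10296600 had 702 reads, or 342 reads per kb (318 to 369), rank 2420. They shared 1400 bp, which was 93.3% of the OX TZP island and 68.3% of the OX ZFHD10 island, with midpoints 375 bp apart. An OX TZP island inside the gene, from 10297751 to 10298850, had 170 reads, or 155 reads per kb (132 to 180), and overlapped no OX ZFHD10 island. An OX ZFHD10 island 672 bp past the higher-coordinate end, from 10301901 to 10302350, had 120 reads, or 267 reads per kb (221 to 319). That island lay over the transfer RNA gene AT4G18725 and the ribosomal protein gene RPL16B. The shared site at BIN2 was thus at an end that no other annotated gene overlapped.

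By its densest island, each of the transcription factor genes BZR1 and BES1 ranked in the denser part of the OX ZFHD10 list. In the OX TZP list both ranked in the less dense part, though both intervals include the list median. At BZR1 the OX ZFHD10 island, on chromosome 1 from 28182801 to 28185800, had 979 reads, or 326 reads per kb (306 to 347), rank 3088. It covered 11.5% of the gene and reached 2703 bp beyond its lower-coordinate end, over AT1G75060 and the transfer RNA gene AT1G75070. The OX TZP island from 28185051 to 28186400 spanned the same end with 215 reads, or 159 reads per kb (139 to 182), rank 6854. They shared 750 bp, and the OX TZP island lay further into the gene, so that it covered 34.9% of it.

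At BES1 the lines marked different parts. The OX ZFHD10 island from 6686801 to 6688950 on chromosome 1 spanned the lower-coordinate end with 589 reads, or 274 reads per kb (252 to 297), rank 6871. Its interval includes the list median. The OX TZP island from 6690601 to 6692300 spanned the opposite end with 264 reads, or 155 reads per kb (137 to 175), rank 8076. A denser OX ZFHD10 island from 6692001 to 6693250 held 442 reads, that is 354 reads per kb (321 to 388), rank 2029. It lay 784 bp outside BES1 and overlapped the OX TZP island by 300 bp, wholly outside BES1. RRA3, a neighbour that shares 818 bp with BES1, lay under both of these, so that they cannot be assigned to BES1 alone.

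Of the synthesis genes, DWF4, which encodes a cytochrome P450 at a rate-limiting step, was the member with OX ZFHD10 islands and no OX TZP island. Over all protein-coding genes 29.2% had that pattern. On chromosome 3 the OX ZFHD10 island from 18813851 to 18816100 had 765 reads, or 340 reads per kb (316 to 365), rank 2477, and 95.6% of it lay in DWF4. It also touched the long noncoding RNA gene AT3G08135. A second from 18817101 to 18818350 spanned the higher-coordinate end with 494 reads, or 395 reads per kb (361 to 432), rank 1053, the densest at a member after that of BRI1. Together they covered 71.1% of DWF4, more than in 93.7% of the 18099 genes with an OX ZFHD10 island. The nearest OX TZP island, from 18818801 to 18819500, lay 1395 bp from the gene, beyond the stretch searched, with 128 reads, or 183 reads per kb (153 to 217).

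CPD, a second cytochrome P450 gene of synthesis, showed the opposite arrangement, with its OX TZP island inside the gene and its OX ZFHD10 island outside. On chromosome 5 the OX TZP island from 1704501 to 1706100 lay wholly in CPD with 227 reads, or 142 reads per kb (124 to 162), rank 11031 of 11675. The OX ZFHD10 island from 1707301 to 1710000 lay 352 bp past the higher-coordinate end with 610 reads, or 226 reads per kb (208 to 245), rank 12247 of 16122. These did not overlap, and both intervals lie below their list medians. CPD had the least dense best island of any member in each list.

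DET2, which encodes a steroid reductase early in synthesis, is the shortest member at 1186 bp and was largely covered in both lists. On chromosome 2 the OX ZFHD10 island from 15921101 to 15922250 had 280 reads, or 243 reads per kb (216 to 274), rank 10186, and covered 94.0% of DET2. The OX TZP island from 15919851 to 15922000 had 339 reads, or 158 reads per kb (141 to 175), rank 7356, and covered 72.9%. Both also overlapped CAC3, whose annotated end shares 35 bp with DET2, and 1285 bp of the OX TZP island lay beyond DET2 on that side. Neither density stood above its list median.

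BAS1, a cytochrome P450 gene whose product inactivates brassinosteroids, had a single short island of each line, both at the lower-coordinate end and touching no other annotated gene. On chromosome 2 the OX TZP island from 11380351 to 11381000 had 119 reads, or 183 reads per kb (152 to 219), rank 2003. The OX ZFHD10 island from 11380201 to 11380800 had 151 reads, or 252 reads per kb (213 to 295), rank 9218. They shared 450 bp, with midpoints 175 bp apart, which covers 69.2% of the OX TZP island and 75.0% of the OX ZFHD10 island. Both intervals include the list medians. The cytochrome P450 members DWF4, CPD and BAS1 thus carried 3 different arrangements: OX ZFHD10 islands alone, islands that did not overlap, and overlapping islands.

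**Figure D2:**
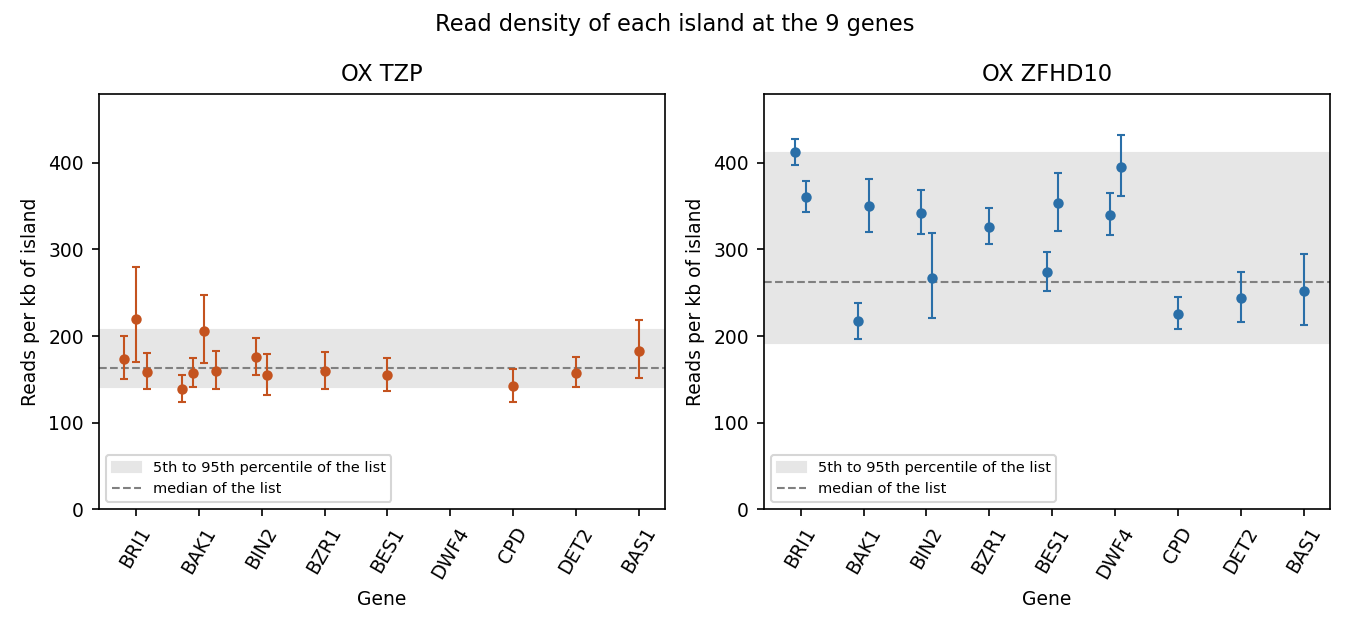
Reads per kb of each island (points) at each gene, with 95% exact Poisson intervals (bars), in OX TZP (left) and OX ZFHD10 (right); the dashed line is the median of the list and the grey band its 5th to 95th percentile. In OX TZP the island of 220 reads per kb at BRI1 lies above the band and that of 139 at BAK1 below it. In OX ZFHD10 only the island of 412 at BRI1 lies above the band, and none lies below it.

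The members' densities spanned most or all of the band between the 5th and 95th percentiles of each list. The band from the 5th to the 95th percentile ran from 141 to 207 reads per kb in OX TZP and from 192 to 411 in OX ZFHD10. The 14 OX TZP islands ranged from 139 to 220 reads per kb, with a median of 159, and 5 exceeded the list median. The 14 OX ZFHD10 islands ranged from 217 to 412, with a median of 333, and 10 exceeded it. Counted by gene, the densest island exceeded the list median at 4 of 8 members in OX TZP and at 6 of 9 in OX ZFHD10. Over all genes with an island the shares were 53.1% and 60.3%, so neither count is far from the background. The members above the median in OX ZFHD10 were BRI1, BAK1, BIN2, BZR1, BES1 and DWF4, and those in OX TZP were BRI1, BAK1, BIN2 and BAS1. BRI1, BAK1 and BIN2 were above it in both lists, though the OX TZP interval of BIN2 (155 to 198) includes the list median.

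Several islands at a gene were found for BRI1, BAK1 and BIN2 in OX TZP, 3 of 8 members, where 26.0% of all genes with an island had 2 or more. In OX ZFHD10 they were found at BRI1, BAK1, BIN2, BES1 and DWF4, 5 of 9 members, against 35.6%. These genes are from 2754 to 5091 bp long, and the part of gene length in these counts was not tested.

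Most members carried islands of both lines. Both lines had an island at 8 of 9 members (88.9%), against 36.7% of all protein-coding genes. At 7 of these 8, all but CPD, an island of each line also overlapped the other. Overlapping islands were found at 26.6% of all protein-coding genes, and at 7304 of the 10075 with islands of both lines. Among the 20089 protein-coding genes no shorter than DET2 and no longer than BIN2, 49.8% had an OX TZP island and 70.7% an OX ZFHD10 island. That range holds most of the 27444 protein-coding genes, and shares with islands of both lines were not computed in it. The part of gene length in the counts for both lines was not tested. With 9 genes chosen by name these counts are a description and were not tested. Using islands whose midpoint lay in the stretch, 5 members had islands of both lines and 4 had overlapping ones, against 30.8% and 22.3% of all protein-coding genes. In the denser part of each list, from the median upwards, 3 members had both and 3 had overlapping ones, against 14.0% and 9.86%.

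**Figure D3:**
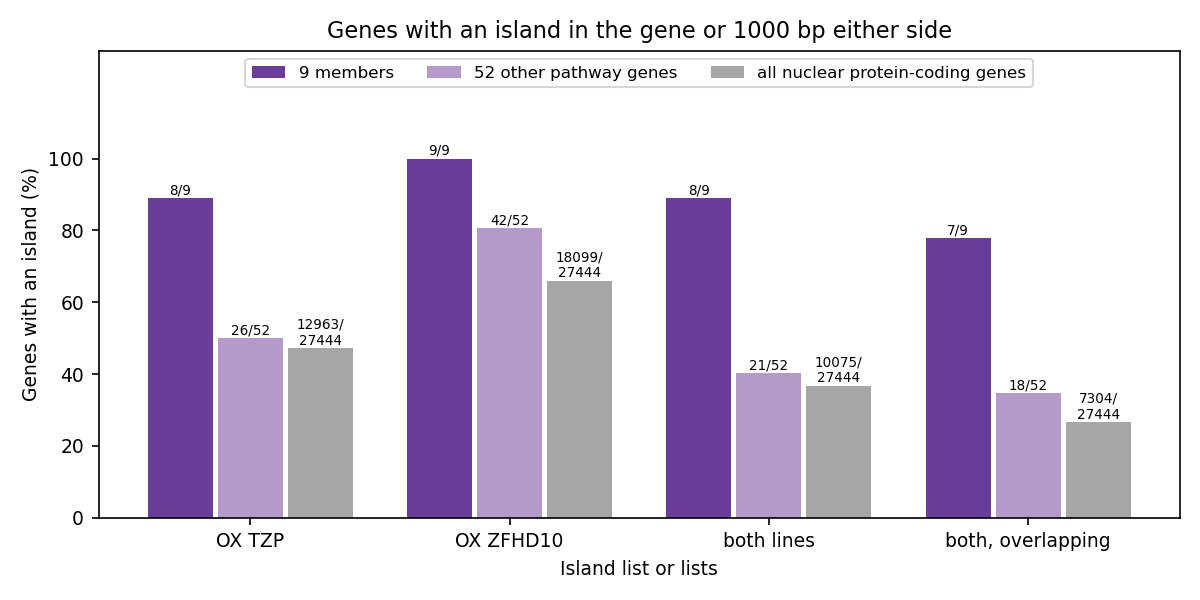
Share of genes, in %, with an OX TZP island, an OX ZFHD10 island, islands of both lines, and overlapping islands of both lines, for the 9 members, 52 other genes of the pathway and all nuclear protein-coding genes; the counts stand above the bars. The members have the highest share in each class, and the other pathway genes lie near the background in OX TZP.

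Islands of OX ZFHD10 lay mostly at and beyond the ends of the members, and OX TZP islands more often inside. Of 14 OX TZP islands 11 touched the gene and 7 had their midpoint in it, where 66.4% and 45.3% of all pairs of a gene and an OX TZP island did. Of 14 OX ZFHD10 islands 10 touched the gene and 3 had their midpoint in it, where 72.3% and 26.9% of all pairs did. The positions at the members were thus near those at genes in general. The OX ZFHD10 midpoints inside a member were those at DET2, at DWF4 and at BAS1, where the midpoint lay just inside the lower-coordinate end.

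Overlap was counted in the same way. Of the 14 islands of OX TZP 11 shared bases with an OX ZFHD10 island and 4 lay wholly inside one, namely the 3 at BRI1 and 1 at BAK1, where 52.4% and 13.3% of all pairs did. Of the 14 OX ZFHD10 islands 9 overlapped an OX TZP island, against 35.3%, and none lay wholly inside one, against 6.60%. The overlapping pairs differed in how closely they coincided. Over the 11 pairs, midpoints were 175 bp apart at BAS1, 375 bp at BIN2, 750 bp at DET2, 1175 bp at BES1 and 1425 bp at BZR1. The 3 pairs at BAK1 were 175, 1050 and 1200 bp apart. Those at BRI1 were 250, 1650 and 3225 bp apart, the last between the longest OX ZFHD10 island and the 300 bp OX TZP island. Whether part of the overlap comes from reads common to both island calls, such as a shared control library, was not tested.

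Just beyond the stretch searched, the islands nearest the limit were an OX ZFHD10 island 1168 bp from BAK1, with 230 reads per kb (198 to 266), and an OX TZP island 1275 bp from BZR1. The latter, from 28189351 to 28190150 on chromosome 1, had 195 reads, or 244 reads per kb (211 to 280), and ranked 163 of 11675. It was denser than any OX TZP island at a member, though its interval overlaps those of the densest at BRI1, BAK1 and BAS1. It lay over the end of AT1G75090, a gene that overlaps BZR1 at its far end.

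The rest of the pathway was examined in 52 other genes of synthesis, inactivation, reception, signal transfer and transcription. In OX TZP 26 of 52 had an island (50%), which is near the 47.2% of all protein-coding genes, and in OX ZFHD10 42 did (80.8%, against 65.9%). Islands of both lines were found at 21 (40.4%, against 36.7%). The densest island exceeded the list median at 17 of 26 genes in OX TZP and at 27 of 42 in OX ZFHD10, against 53.1% and 60.3% of all genes. No island of either line was assigned to CYP85A1, which encodes an enzyme of the last steps of synthesis, the glucosyltransferase gene UGT73C6, the kinase gene BSK2 and the transcription factor genes TCP1 and CES.

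Among the 9 other genes of reception, none had an island as dense within its list as BRI1 and BAK1. The densest OX TZP islands of that group, at the receptor-like gene BRL1 and at BKI1, which encodes an inhibitor of BRI1, each had 105 reads over 600 bp, or 175 reads per kb (143 to 212), rank 3021. The OX TZP intervals of BRI1 (170 to 280) and BAK1 (169 to 247) overlap that interval. The densest OX ZFHD10 island, at the co-receptor gene SERK4, had 276 reads per kb (240 to 316), rank 6633. In this group 6 genes had an OX TZP island and 7 an OX ZFHD10 island. These are 66.7% and 77.8%, against 47.2% and 65.9% of all protein-coding genes. BRL1 and BRL2 had OX TZP islands alone, and BRL3, SERK1 and SERK4 OX ZFHD10 islands alone. Over all protein-coding genes, 10.5% had an OX TZP island alone and 29.2% an OX ZFHD10 island alone.

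Among 15 other genes of signal transfer, 12 had an OX ZFHD10 island and 5 an OX TZP island. These are 80% and 33.3%, against 65.9% and 47.2% of all protein-coding genes. BSK3, which encodes a kinase that acts next to the receptor, had the densest OX ZFHD10 island of the whole pathway, from 289201 to 290600 on chromosome 4, with 750 reads, or 536 reads per kb (498 to 575), rank 100 of 16122. It spanned the lower-coordinate end of the gene and also overlapped the neighbouring gene AT4G00700. BSK3 had no OX TZP island within 1000 bp. The densest OX TZP island in this group, at AT4G12810, had 174 reads per kb (149 to 202), rank 3224. It lay 730 bp outside AT4G12810, over the neighbouring gene PSAL.

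The 11 other transcription factor genes had an OX TZP island in 8 cases and an OX ZFHD10 island in 8, with both in 7. These are 72.7%, 72.7% and 63.6%, against 47.2%, 65.9% and 36.7% of all protein-coding genes. All 8 with an OX TZP island had a denser one than BZR1 and BES1, from 170 to 207 reads per kb. By reads per island the order differed: BES1 (rank 1007) came before all of them but BEH3 (836), and BZR1 (2004) before all but BEH3 and BIM2 (1827). At BEH3, a homologue of BZR1 and BES1, the OX TZP island from 10351301 to 10352650 on chromosome 4 had 280 reads, or 207 reads per kb (184 to 233), rank 578. The OX ZFHD10 island there, from 10351901 to 10353850, had 770 reads, or 395 reads per kb (367 to 424), rank 1063, the densest of the group. The factor genes MYBL2, BEH4 and MYB30 also ranked high in both lists. Their densest OX TZP islands had 192, 186 and 185 reads per kb, at ranks 1229, 1695 and 1811. Their densest OX ZFHD10 islands had 382, 368 and 347 reads per kb, at ranks 1286, 1597 and 2254. At MYBL2 the densest islands of both lines also overlapped the neighbour LPR2. At BEH4 they lay at opposite ends of the gene, and the OX TZP island also overlapped TBL42. The interval of the OX TZP island at BEH3 lies above those of BZR1 and BES1, while those of MYBL2 (156 to 234), BEH4 (150 to 228) and MYB30 (160 to 213) overlap them.

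Of the 11 other synthesis genes, 10 had an OX ZFHD10 island (90.9%, against 65.9% of all protein-coding genes). An OX TZP island was found at 5 (45.5%, against 47.2%), and at all 5 islands of both lines overlapped. Over all protein-coding genes, 7304 of the 10075 with islands of both lines had overlapping ones. FK, which encodes a sterol reductase upstream of the hormone pathway, had its densest OX TZP island 376 bp outside the gene, with 208 reads per kb (174 to 246), rank 558. That island also touched FBA8, and it lay within an OX ZFHD10 island of 420 reads per kb (387 to 455), rank 693, the densest of the synthesis genes in that list. The densest OX TZP island of the group, assigned to the sterol reductase gene DWF5, had 210 reads per kb (175 to 250), rank 484. It lay 531 bp outside DWF5. Of 6 other inactivation genes, 5 had an OX ZFHD10 island and 2 an OX TZP island. These are 83.3% and 33.3%, against 65.9% and 47.2% of all protein-coding genes. At UGT73C5, a glucosyltransferase gene, the OX TZP island had 70 reads over 350 bp, or 200 reads per kb (156 to 253), rank 767. At CYP72C1, a cytochrome P450 gene, the OX ZFHD10 island had 365 reads per kb (338 to 393), rank 1689.

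**Figure D4:**
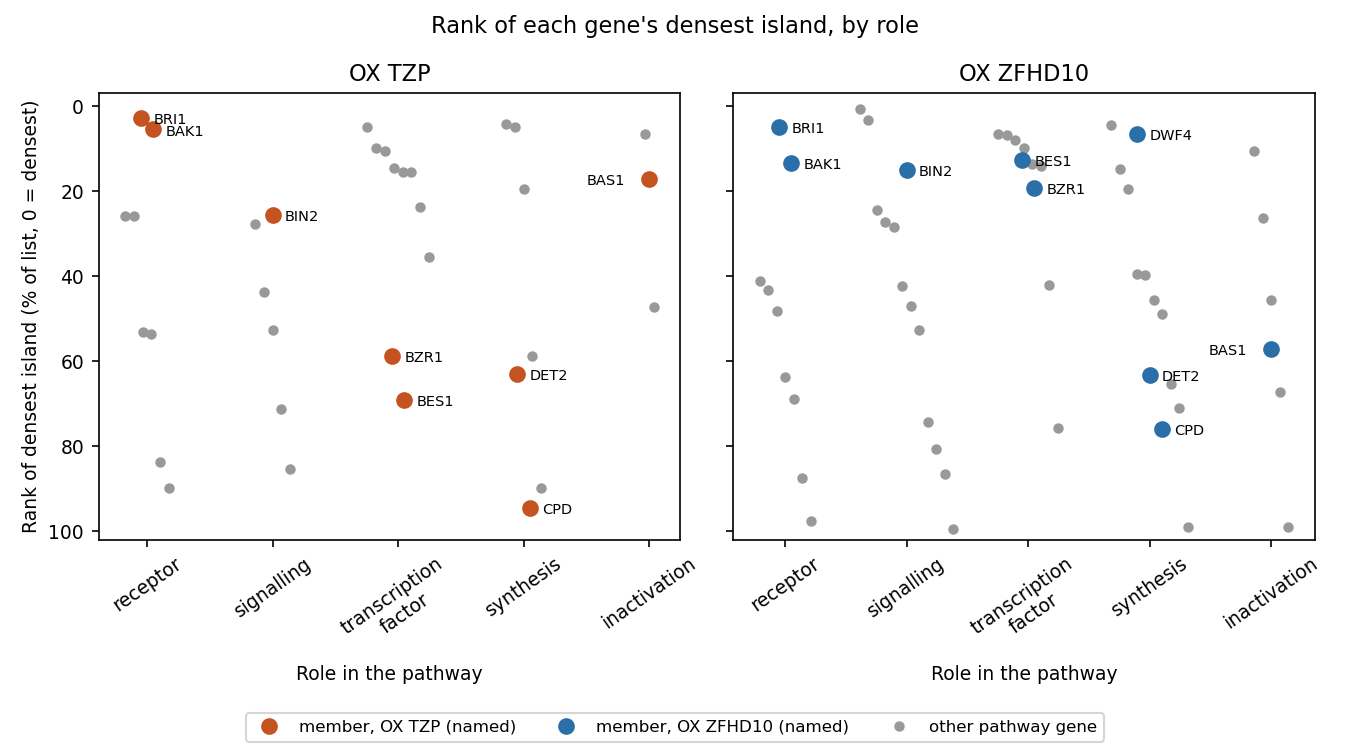
Rank of each gene's densest island as a percentage of its list (0 is the densest), by role, in OX TZP (left) and OX ZFHD10 (right), for members (large, named) and other pathway genes (small, grey); genes without an island are not drawn. By density, BRI1 and BAK1 stand above all other genes of reception in both lists. Their OX TZP intervals overlap those of BRL1 and BKI1. In OX TZP the factor genes BZR1 and BES1 stand below all others of their role by density.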

How the data were processed

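The authors deposited, for OX TZP and OX ZFHD10, a list of islands with a whole-number count of reads in column 4, not scaled for depth or length; no label states that these are reads, which was read from the values. Per the file names, the window was 50 bp, the gap 200 bp and the false discovery rate 0.1. Without giving their roles, the submitters' processing notes list SICER 1.1, HOMER, Bowtie 0.12.7, cutadapt 1.5 and the build TAIR10. The control library and the treatment of duplicate and multiply mapped reads are not given in the sources used here. Per the labels' protocols, tissue was fixed with 1% formaldehyde, and single-end reads of 75 bp came from libraries made with 12 cycles of PCR, so reads are not independent molecules.

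Positions were counted from 1. Islands move in steps of 50 bp. Genes came from a RefSeq table of TAIR10.1, without strand, exons or sequence, so ends are named by coordinate. To check the builds against each other, midpoints of OX ZFHD10 islands were counted in genes at offsets of up to 3000 bp. The share was lowest at 0 bp, with 41.5%, and 48.3% and 48.2% at 250 bp to either side. The planned motif search was not run. Reads were divided by island length, with Python 3.11.15 and scipy 1.17.1. Ranks run from the densest nuclear island. The assignment was tested on simulated islands. The members and lists were chosen with earlier results of these data known. Named pathway genes were, per role, the densest in each line, those without islands, and the 5 best by summed rank; BRL1 to BRL3, SERK1, BSK2 and the island beside BZR1 follow from counts or were named after their values were seen. No test between lines was made, as each had 1 library.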

Additional observations from a re-analysis of the deposited data

How the results depend on the processing

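No paired analysis was possible because each line had 1 library. With 0, 500 or 2000 bp searched on either side, every count of members and of other pathway genes stayed within 1.5 times its value with 1000 bp; at 2000 bp DWF4 gained an OX TZP island. In the denser part of each list, 4 members had an OX TZP island, 3 had both and 3 had overlapping islands. There 17 other pathway genes had an OX TZP island, 27 an OX ZFHD10 island and 10 both, and the background fell to 25.3% and 39.9%. In the part with the most reads these were 12, 25 and 6, and 29.0% and 40.1%. Of the 52 other pathway genes, the share with an OX TZP island was above the background in the denser part. It was below the background in the part with the most reads. The share with an OX ZFHD10 island was above it in both parts. The background for both lines was 14.0% in the denser part and was not computed in the part with the most reads. By midpoint, 6 members had an OX ZFHD10 island, 5 had both and 4 had overlapping islands. Ranks depended on the measure: by reads, the densest OX TZP islands ranked 11606 at BRI1, 9207 at BAK1, 2004 at BZR1, 1007 at BES1, 1686 at CPD and 426 at DET2. The densest OX ZFHD10 islands ranked 10 at BRI1, 1056 at BIN2, 469 at BZR1, 1440 at CPD, 5327 at DET2 and 2178 at DWF4. The number of reads in an island grows with its length, and short islands carry few reads. OX TZP lists no island under 47 reads and OX ZFHD10 none under 55, so a gene without an island may still hold weaker signal; the depth of the libraries is unknown.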
